A study of Mus musculus with 10 samples.

Results

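The cytosolic ribosomal protein genes were followed in regulatory T (Treg) cells with and without Fntb, which encodes the beta subunit of protein farnesyltransferase. Members were all genes whose symbol on the array follows the naming pattern of ribosomal proteins (Rpl or Rps with a number, and Rplp0 to Rplp2), each read by its brightest probe set that names a single gene. They were 66 of the 22180 genes tested. Of them, 32 encode proteins of the large subunit, 22 of the small subunit and 3 of the stalk, and 9 are paralogs whose symbol marks them as "like" another member. RefSeq lists 83 protein-coding genes under this pattern. Of these, 64 were measured, 12 had only probe sets naming several genes, and 7 had no named probe set. The 2 remaining members, Rpl6l and Rps4l, are not listed as protein coding.

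Per the labels, the Treg cells were CD4+ YFP+ and were sorted from spleen and pLN of chimeras. There were 5 arrays from WT chimeras and 5 from Foxp3CreFntbfl/fl chimeras, called Fntb KO, in which a Cre driven by the Treg lineage factor Foxp3 removes a floxed Fntb. The alleles carried by the WT chimeras, the make-up of the chimeras, ages and pooling are not stated in the labels, nor is any treatment. Values are log2 probe set signals made by the authors with RMA, so a difference of 1 is a 2-fold change, and a positive difference means higher in Fntb KO.

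The label checks were as follows. Mean Fntb signal was 5.47 ± 0.12 with the deletion and 6.12 ± 0.16 without it (log2, SD, 5 arrays each), and every Fntb KO array lay below every WT array. Whether its probe set lies in the deleted part was not examined. The 5 Treg markers averaged 9.91 to 10.08 in the WT arrays and 9.68 to 9.87 in the Fntb KO arrays, which were all lower. Foxp3 differed by -0.14 (limma adjusted p 0.601) and Ctla4 by -0.39 (adjusted p 0.0778), both without overlap of the groups. Ikzf2 differed by -0.41 (adjusted p 0.236), Tnfrsf18 by -0.23 and Il2ra by 0.05, and 0 of the 5 were called. The 7 measured T cell markers averaged 10.18 to 10.51 over all arrays. The 3 measured B cell markers averaged 3.99 to 4.37. For comparison, 4.19 was the 95th percentile of the 1088 olfactory receptor genes, which serves here as a guide to signal without expression. Of the B cell markers, Cd79b averaged 5.26. Neutrophil markers averaged 3.69 to 4.03 in the WT arrays and 3.63 to 4.91 in the Fntb KO arrays, where S100a8 averaged 4.8 ± 1.03 against 3.75 ± 0.25 (SD, n = 5 each, limma adjusted p 0.321) and reached 6.25 in Fntb KO 3. The macrophage gene Lyz2 averaged 6.50 and the CD8 T cell gene Cd8b1 6.88, so signal of other cell types was not at background throughout, and its part in the values below was not tested. Nkg7, a cytotoxic granule gene, was the only one of 5 CD8 T or NK cell markers that fell (by 0.79, adjusted p 0.0126). Array medians ran from 4.09 to 4.25, with WT 2, Fntb KO 1 and Fntb KO 2 at 4.12 or less and the other 7 at 4.19 or more.

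Cytosolic ribosomes are built in the nucleolus from ribosomal RNA and a fixed set of proteins, most of them present once in each particle. The mRNAs of these proteins are among the most abundant in a cell and share a run of pyrimidines at their start, the terminal oligopyrimidine (TOP) tract, through which mTORC1 and Larp1 regulate their translation. Activated T cells raise ribosome production before they divide. Farnesyltransferase acts on Rheb, the small GTPase that activates mTORC1. The arrays measure transcript levels and carry no information on translation.

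Pyrimidine runs near the annotated starts were read from the reference sequence. The windows below run from 15 bases before the start to 15 bases from it onward, on the gene's strand, from RefSeq (GRCm38.p6). The first 6 are those of members with a mean signal of 10 or more that have the longest pyrimidine run reaching within 5 bases of the start. The last 2, Rps7 and Rps23, are shown because their differences had the lowest p-values of the members. Capitals mark the longest run of C and T that comes within 5 bases of the start, as far as the window holds it. The run spans the annotated start in Rpl7a, Rpl35, Rpl15 and Rpl14, ends before it in Rpl4, Rpl19 and Rps7, and begins after it in Rps23. A TOP tract at the annotated start is thus not shown for the last 4.
Rpl7a (chr2:26910792-26910821, +): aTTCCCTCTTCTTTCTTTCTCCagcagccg
Rpl35 (chr2:39005117-39005146, -): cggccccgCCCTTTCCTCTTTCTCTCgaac
Rpl15 (chr14:18270972-18271001, -): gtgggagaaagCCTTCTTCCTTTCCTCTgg
Rpl14 (chr9:120571502-120571531, +): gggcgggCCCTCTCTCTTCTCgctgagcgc
Rpl4 (chr9:64173372-64173401, +): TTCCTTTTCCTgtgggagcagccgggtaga
Rpl19 (chr11:98026909-98026938, +): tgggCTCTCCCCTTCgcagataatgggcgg
Rps7 (chr12:28635939-28635968, -): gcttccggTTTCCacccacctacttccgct
Rps23 (chr13:90923107-90923136, +): gccttcggctgggcggggCTTCCCgcaatg

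Sequence features were counted over whole promoter windows of 300 bases, 250 before and 50 after the start. Of the members, 51 matched, with 60 windows. The longest run of pyrimidines within 5 bases of the start had a median length of 5 bases in the 51 windows of the large subunit, small subunit and stalk genes, against 3 in all 32851 windows. On the gene's strand, CTCTTT stood in 37.3% of those 51 windows and in 12.1% of all windows, and CTTTCC in 33.3% and 14.1%. These 2 motifs can overlap each other. On either strand, CCGGAAG, the core that ETS family factors bind, stood in 39.2% against 8.86%. AAGATGGC, the core bound by YY1, stood in 3.92% against 2.75%. In the 9 paralog windows, CTCTTT was found in 0 and CCGGAAG in 2. These matches describe the letters and are no evidence of binding.

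No ribosomal protein gene was called different between the genotypes. In limma's fit over all genes, 0 of the 66 members rose and 0 fell at a Benjamini-Hochberg adjusted p under 0.05, where 0.302% of all genes rose and 0.807% fell (1.11% in all). The lowest adjusted p of a member was 0.345. At an unadjusted p under 0.05 there were 3 members (4.55%), against 9.26% of all genes. WT and Fntb KO values overlapped in all 66 members, while the groups did not overlap in 2.67% of all genes. At a background of 1.11%, the absence of calls among 66 genes is no result about them by itself.

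What the data do give is the size of change that the brightest probe set of each member allows. Other probe sets of the same genes, described below, gave partly different values. Differences ran from -0.33 to 0.30 with a median of 0.03, against a median of 0.01 over all genes. The 95% interval of the difference lay inside 2-fold either way for all 66 members, inside 1.5-fold for 63 and inside 1.25-fold for 47. For all genes tested, the shares were 99.02%, 91.92% and 47.07%. The 3 members whose interval reached past 1.5-fold were Rpl26, Rpl34 and Rps23. A positive difference was found in 43 members and a negative one in 23, against 11642 and 10532 of all genes. In sorted cell samples such as these, fewer cells of a type and less RNA per cell cannot be told apart.

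**Figure D1:**
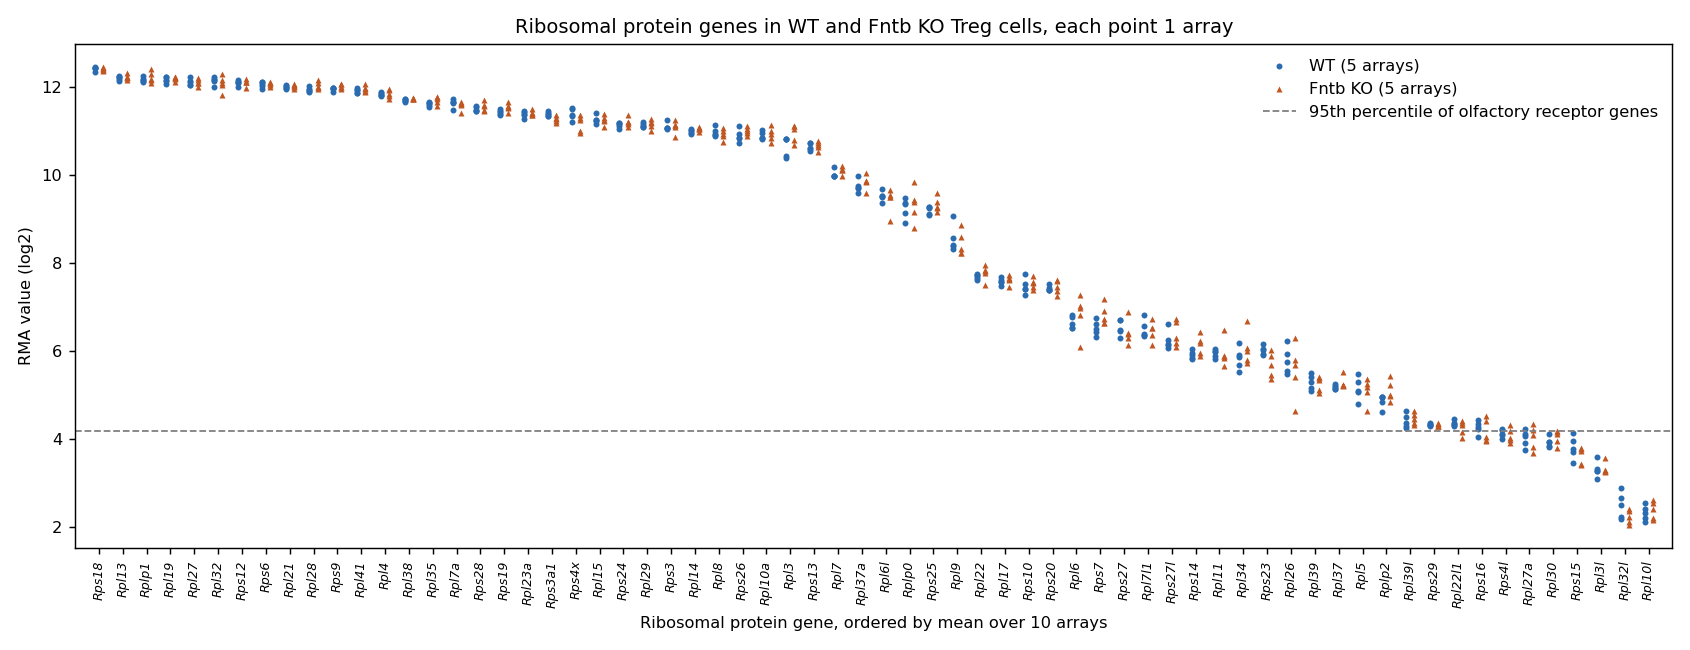
Log2 signal of each of the 66 ribosomal protein genes (horizontal axis, ordered by mean over 10 arrays) in 5 WT arrays (blue circles) and 5 Fntb KO arrays (orange triangles), with the 95th percentile of olfactory receptor genes at 4.19 as a dashed line. The symbols of both groups overlap in every gene, and 32 genes sit at a mean of 10 or more.

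**Figure D2:**
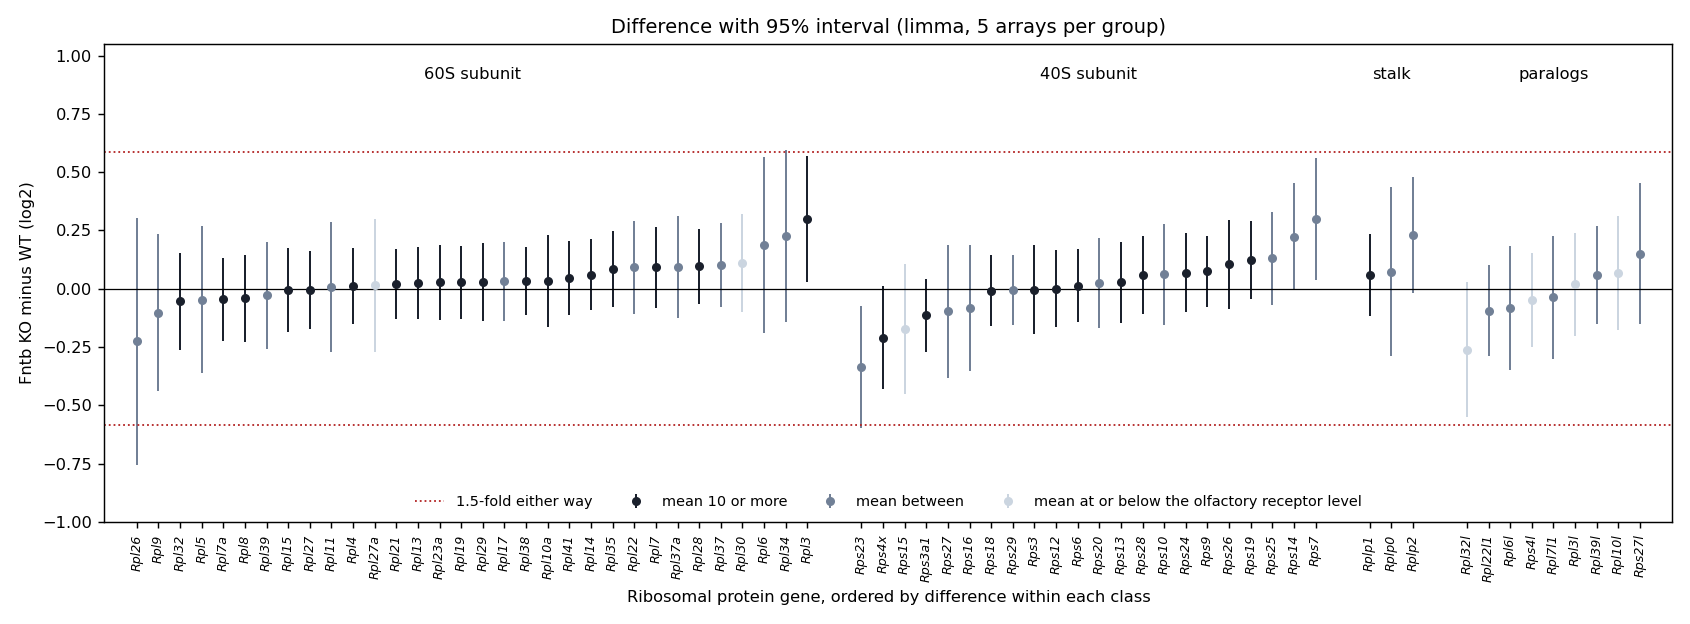
Difference between Fntb KO and WT on the log2 scale with its 95% interval from limma (5 arrays per group), by class of ribosomal protein, shaded by mean signal. All 66 intervals, each from the member's brightest probe set, lie inside 2-fold and 63 lie between the dotted lines at 1.5-fold.

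The members fell into 3 bands of signal, set after the values were seen. There were 32 with a mean of 10 or more, 27 between that and 4.19, and 7 at or below 4.19. A probe set's signal depends on its probes and on what else they match as well as on the transcript, so no member is ranked against another as more abundant. The 7 dimmest were Rpl27a, Rpl30, Rps15 and the paralogs Rps4l, Rpl3l, Rpl32l and Rpl10l. The 32 bright members were 19 large subunit genes, 12 small subunit genes and Rplp1, and their median lay at the 99.80th to 99.86th percentile of genes on every array. Whether signals this near the top of the scale narrowed the differences was not tested.

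Bright members varied little between arrays. Their SD had a median of 0.06 within WT and 0.09 within Fntb KO, and their range over all 10 arrays a median of 0.26. Differences ran from -0.21 to 0.30 with a median of 0.03, and 30 of the 32 intervals lay inside 1.25-fold, the exceptions being Rpl3 and Rps4x. Among the 207 other genes with a mean of 10 or more, the median difference was -0.03 and 70.05% of intervals lay inside 1.25-fold. Of all genes at that level, 1.26% were called.

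Rps6 is the small subunit protein that S6 kinase phosphorylates downstream of mTORC1. Its range over all 10 arrays was 0.15, against a median of 0.26 in the bright members. Its SD within WT was 0.06, the same as their median. Rps6 read 11.97, 12.11, 12.07, 12.12 and 12.04 in WT arrays 1 to 5. In Fntb KO arrays 1 to 5 it read 12.05, 12.11, 12.09, 12.13 and 12.00. The groups covered nearly the same range, and the difference was 0.01 (SE 0.0728, 95% interval -0.14 to 0.17, adjusted p 0.985).

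Rpl38, a large subunit protein known from mouse embryos for its part in the translation of Hox mRNAs, had the smallest SD within WT. Its mean was 11.71 ± 0.03 in WT arrays and 11.74 ± 0.01 in Fntb KO arrays (SD, n = 5 each), and it differed by 0.03 (SE 0.0684). Its WT arrays ran from 11.67 to 11.73 and its Fntb KO arrays from 11.73 to 11.76, so the ranges met. Rps18, a protein of the head of the small subunit, was the member with the highest signal. It averaged 12.43 ± 0.05 in WT arrays and 12.42 ± 0.04 in Fntb KO arrays. The difference was -0.01 (95% interval -0.16 to 0.14). Other probe sets of Rps18 were far dimmer, at means of 4.62 and 4.37, and gave 0.11 and 0.07.

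Of the large subunit genes, 23 of 32 had a positive difference, with a median of 0.03. The largest was that of Rpl3, a protein close to the peptidyl transferase centre. Rpl3 read 10.43, 10.39, 10.82, 10.83 and 10.84 in WT arrays 1 to 5. The Fntb KO arrays read 10.79, 10.69, 11.13, 11.06 and 11.12. In each genotype arrays 1 and 2 were the lowest, and the groups overlapped. Arrays 1 and 2 of both genotypes come first in the series' sample order, and the 3 low-median arrays are among them. Within arrays 1 and 2 both Fntb KO values lay above both WT values. Within arrays 3 to 5 every Fntb KO value lay above every WT value. The labels name no batch, and this split was seen only in the values. The difference was 0.30 (SE 0.126, 95% interval 0.03 to 0.57), with an unadjusted p of 0.0329 and an adjusted p of 0.464. The other probe sets of Rpl3 gave -0.27 and 0.12, and the mean of all 3 differed by 0.05. When the 3 low-median arrays (WT 2, Fntb KO 1 and Fntb KO 2) were fitted as a block, the difference of Rpl3 was 0.37. Its adjusted p was then 0.0772, the lowest of any member in any fit. WT 1 was not in that block, and a block of arrays 1 and 2 was not fitted.

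Next in size among large subunit genes were Rpl34 (0.23) and Rpl6 (0.19), both of middle signal and with wide intervals, and at the other end Rpl26 (-0.23). Rpl34 was at 0.068 without Fntb KO 2 and at 0.10 without the 3 low-median arrays. Rpl6 ran from 0.082 without Fntb KO 1 to 0.37 without Fntb KO 4 (adjusted p 0.217). Rpl26, which in human cells binds p53 mRNA, had the widest spread of all members. Its WT arrays ran from 5.48 to 6.24 and its Fntb KO arrays from 4.63 to 6.30. Fntb KO 5 was the lowest array, and without it the difference was 0.01. The remaining large subunit genes among the 10 highest or 10 lowest differences outside the paralogs were Rpl30 (0.11), Rpl9 (-0.10), Rpl32 (-0.05) and Rpl5 (-0.05), none of them past the threshold. Rpl5 and Rpl11, which together bind Mdm2 when ribosome assembly stalls, differed by -0.05 (95% interval -0.36 to 0.27) and 0.01 (-0.27 to 0.29), both at middle signal. Rpl22, which mouse alpha-beta T cells need for their development, differed by 0.09 (95% interval -0.11 to 0.29).

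Of the small subunit genes, 13 of 22 had a positive difference, with a median of 0.02. The member with the lowest p was Rps23, a protein at the decoding centre. In WT arrays 1 to 5 it read 6.04, 6.17, 6.03, 5.92 and 5.90. In Fntb KO arrays 1 to 5 it read 5.37, 5.88, 5.45, 6.01 and 5.67. Of the Fntb KO arrays, 4 lay below every WT array and Fntb KO 4 lay within their range. The difference was -0.33 (SE 0.122, 95% interval -0.60 to -0.07), with an unadjusted p of 0.0162 and an adjusted p of 0.345.

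Rps7, which takes part in early processing of small subunit RNA, went the other way. Its WT arrays read 6.61, 6.75, 6.32, 6.43 and 6.51, and its Fntb KO arrays 6.73, 7.19, 6.92, 6.63 and 6.64. All 5 Fntb KO arrays lay above the WT mean, but 3 of them were below WT 2. The difference was 0.30 (SE 0.121, 95% interval 0.04 to 0.56), with an unadjusted p of 0.0274 and an adjusted p of 0.433. Rps23 and Rps7 were both of middle signal, and each was read by a single probe set.

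Rps4x, which lies on chromosome X, had the lowest difference among bright members. Its mean was 11.39 ± 0.12 in WT arrays and 11.18 ± 0.19 in Fntb KO arrays (SD, n = 5 each), and it differed by -0.21 (95% interval -0.43 to 0.01, adjusted p 0.571). All 5 Fntb KO arrays lay below the WT mean, from 10.96 to 11.38, while the WT arrays ran from 11.22 to 11.52. The only other member on that chromosome, Rpl39, lines the exit tunnel and differed by -0.03 at a mean of 5.27. Rps3a1 was also below the WT mean in all 5 Fntb KO arrays, at a difference of -0.11 (adjusted p 0.715).

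Rps19, the gene most often mutated in human Diamond-Blackfan anaemia, averaged 11.43 ± 0.06 in WT arrays and 11.55 ± 0.09 in Fntb KO arrays (SD, n = 5 each). Its difference was 0.12 (95% interval -0.04 to 0.29, adjusted p 0.704), and Fntb KO 5 lay within the WT range. A dimmer probe set of Rps19 (mean 5.69) gave 0.33 (95% interval 0.04 to 0.62, adjusted p 0.448 over probe sets). The mean of all its probe sets differed by 0.19 (adjusted p 0.521). Rps14, a protein of the platform of the small subunit, differed by 0.22 at middle signal (95% interval -0.01 to 0.45, adjusted p 0.553). That value was 0.15 without Fntb KO 2 and 0.094 without the 3 low-median arrays. The other small subunit genes among the 10 at either end were Rps25 (0.13), Rps26 (0.10), Rps15 (-0.17), Rps27 (-0.10) and Rps16 (-0.08). Leaving out single arrays moved each of these 5 by over 1.5 times, Rps25 to 0.068 without Fntb KO 1 and Rps15 to -0.093 without WT 3 among them.

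**Figure D3:**
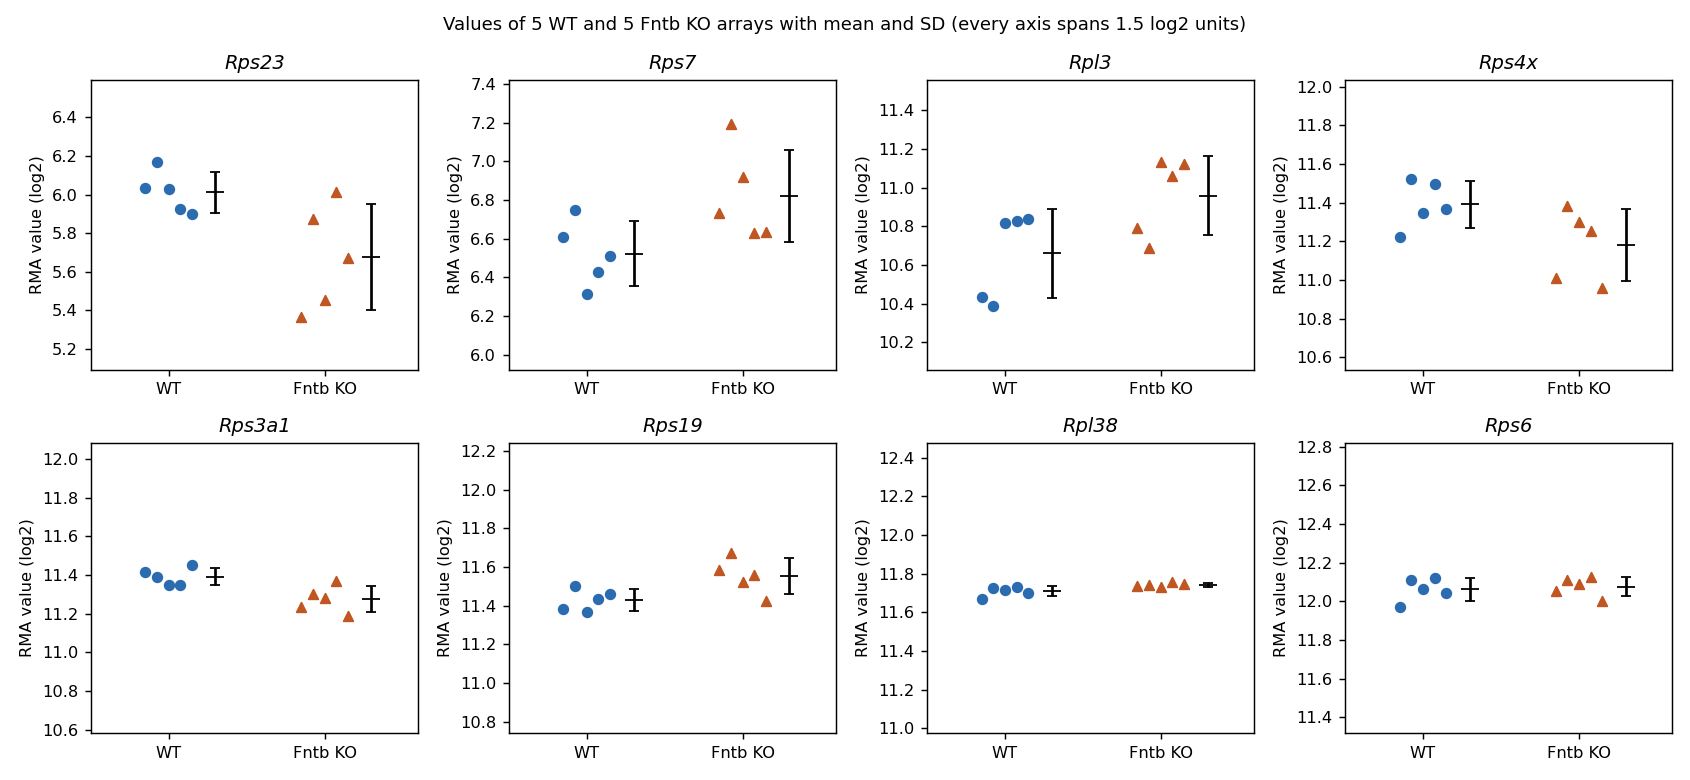
Log2 signal of 8 ribosomal protein genes in 5 WT arrays (blue circles) and 5 Fntb KO arrays (orange triangles), with mean and SD in black, every axis spanning 1.5 log2 units. Rps23, Rps7 and Rpl3 have the lowest p-values of the members and still overlap, while Rpl38 and Rps6 hardly move between arrays.

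The stalk proteins, which recruit elongation factors to the ribosome, had 3 positive differences, of which that of Rplp0 turned negative without WT 1 (-0.011), without Fntb KO 2 (-0.056), and with the 3 low-median arrays blocked (-0.012) or left out (-0.080). Rplp1 averaged 12.18 ± 0.06 in WT arrays and 12.24 ± 0.12 in Fntb KO arrays (SD, n = 5 each), and differed by 0.06 (SE 0.0816), or by 0.003 without those 3 arrays. Rplp0 differed by 0.07 (SE 0.168), and its arrays ran from 8.79 to 9.84, with Fntb KO 5 lowest and Fntb KO 2 highest. Rplp2 differed by 0.23 (95% interval -0.02 to 0.48, adjusted p 0.593) at a mean of 4.98.

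The 9 paralogs had differences from -0.26 to 0.15 with a median of -0.04, and 0 were called. Rpl10l, which stands in for its X-linked parent in the mouse testis, had a mean of 2.35, and the striated muscle gene Rpl3l one of 3.32. Rpl32l (2.36) and Rps4l (4.10) were also at or below the olfactory receptor level, and Rpl39l, a testis gene, lay just above it at 4.43. Rps27l, a p53 target in human cells, differed by 0.15 (95% interval -0.15 to 0.45), with its highest values in Fntb KO 2, Fntb KO 1 and WT 2, and by 0.044 without these 3 arrays. Rpl22l1, which mouse cells raise when Rpl22 is lost, differed by -0.09 (95% interval -0.29 to 0.10) at a mean of 4.30. Rpl7l1 differed by -0.04. Rpl6l had a mean of 9.48 and differed by -0.08. As its name marks it as a copy of Rpl6, the signals of both cannot be told apart with certainty.

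Ribosomal protein genes have many processed copies in the genome, and the probe sets reflect this. The 66 members had 106 probe sets with a single symbol, of which 10 shared all their values with another one. In 24 members with more than 1 probe set, the differences had opposite signs in 9. Of the 106 probe sets, 0 were called when all 23521 were tested. An unadjusted p under 0.05 was found in 6 of them, and the share over all probe sets was not counted. Over all genes, each read by its brightest probe set, that share was 9.26%. The largest difference came from a dimmer probe set of Rpl21 (mean 6.75), at 0.41 (95% interval 0.12 to 0.69, adjusted p 0.254). That interval reached past 1.5-fold. Both brighter probe sets of Rpl21 (12.02 and 11.90) gave 0.02 and 0.03. Dimmer probe sets of Rpl27 and Rplp0 gave 0.25 (95% interval 0.04 to 0.45) and 0.26 (-0.03 to 0.55). Those of Rpl3 and Rpl7 included values of -0.27 (-0.68 to 0.15) and -0.11 (-0.36 to 0.14). Whether a probe set reads the gene itself or a copy was not examined.

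The SD was larger in Fntb KO than in WT in 50 of 66 members, against 61.74% of all genes. Fntb KO 2 was the highest of the 10 arrays in 21 members, and Fntb KO 5 was the lowest in 19. Among the bright members, Fntb KO 5 was the lowest in 12. The highest and the lowest values thus often came from the same genotype.

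Each array's median over the 22180 genes was also taken as a reference. The median member stood 5.44 ± 0.15 above it in WT and 5.49 ± 0.18 above it in Fntb KO (log2, SD, n = 5 each), and the groups overlapped. The array medians given elsewhere here, which mark the low-median arrays, are over all probe sets. The 3 low-median arrays stood above the rest. The median of the 66 members was 9.82 to 9.85 in them and 9.51 to 9.68 in the other 7 arrays. In the bright band the arrays overlapped (11.57 to 11.67 against 11.50 to 11.62), and in the middle band they did not (6.42 to 6.69 against 6.06 to 6.30). All 3 arrays lay above the other 7 in 8 of the 66 members, or 12.12%, against 6.36% of all genes. These were Rplp1, Rpl10a, Rpl37a, Rplp0, Rps10, Rps27l, Rpl34 and Rpl27a. In 0 members did all 3 lie below, against 3.09% of all genes. They are 1 WT and 2 Fntb KO arrays. Without them, 0 members were called (0.676% of all genes), and with them as a block, 0 were called (1.66% of all genes).

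The 71 mitochondrial ribosomal protein genes, which build the separate ribosome of mitochondria, also stood higher in those arrays. Their median was 7.0 to 7.11 in the 3 arrays and 6.35 to 6.69 in the others. Medians of other lists, described below, did the same. They were 10.05 to 10.30 against 9.80 to 10.00 for TOP mRNAs and 7.69 to 7.84 against 7.39 to 7.58 for ribosome biogenesis. Regulators of ribosomal protein synthesis stood at 7.39 to 7.45 against 7.23 to 7.34. The chaperone and stress response lists overlapped. Between genotypes 0 of the 71 were called, with a median difference of 0.05 and 15 intervals inside 1.25-fold, against 47 of the 66 cytosolic genes. The difference between both families was not tested.

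**Figure D4:**
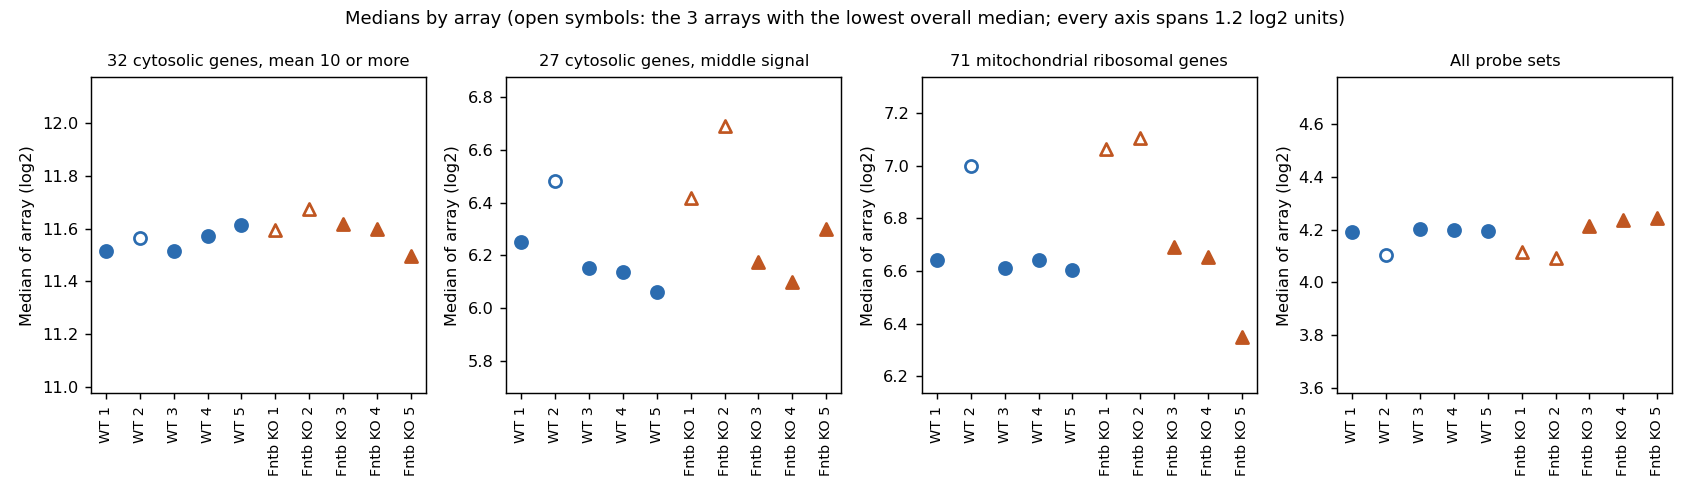
Median log2 signal in each of the 10 arrays for 32 bright and 27 middle-signal cytosolic ribosomal protein genes, 71 mitochondrial ribosomal protein genes and all probe sets, with WT as blue circles, Fntb KO as orange triangles and the 3 low-median arrays as open symbols. The open symbols are highest for the middle-signal and mitochondrial genes and overlap the rest for the bright cytosolic genes.

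Genes that work with the ribosomal proteins were taken from 5 lists. The list of TOP mRNAs also holds Rpsa (-0.03) and Fau (0.01). These encode small subunit proteins, but their symbols fall outside the naming pattern of the members. Other genes with TOP mRNAs, mainly translation factors, had 20 of 23 listed members measured, 0 raised, 0 lowered and a median difference of 0.00. Their largest differences were Nap1l1, a histone chaperone (0.12), and the poly(A)-binding protein Pabpc1 (-0.08). Eef2, the factor that moves the ribosome along the mRNA, averaged 11.34 ± 0.04 in WT arrays and 11.39 ± 0.09 in Fntb KO arrays (SD, n = 5 each) and differed by 0.05.

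Ribosome biogenesis genes had 37 of 39 members measured, 0 raised, 0 lowered and a median of 0.02. All 37 intervals lay inside 1.5-fold. Wdr75 (0.16) and Nop14 (0.16), both needed for small subunit assembly, had the largest differences, and Polr1e, a subunit of RNA polymerase I, was at -0.14. Of 8 measured chaperones and importins of ribosomal proteins, 0 were called. Heatr3, which carries RPL5 in human cells, was at -0.20 (unadjusted p 0.0498, adjusted p 0.539), and Bccip, which binds Rpl23, at -0.18.

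Among 12 measured regulators of ribosomal protein synthesis, 0 rose and 0 fell at the adjusted threshold, with a median of 0.06. Unadjusted p in limma was under 0.05 for 2 of the 12, Myc (0.0223) and Eif4ebp1 (0.0253). That is 16.7%, against 9.26% of all genes, and the list as a set was not tested. The translation inhibitor Eif4ebp1, which mTORC1 inactivates, averaged 6.09 ± 0.20 in WT arrays and 5.80 ± 0.18 in Fntb KO arrays (SD, n = 5 each) and differed by -0.29 with an adjusted p of 0.419. Myc, which drives transcription of ribosome genes, differed by 0.22 (95% interval 0.04 to 0.40, adjusted p 0.399). Of the genes that respond when ribosome assembly fails, Mdm2 differed by 0.02, Mdm4 by 0.10 and Cdkn1a by -0.11, and 0 of the 3 were called.

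Proliferation markers differed on the same arrays. Top2a fell by 1.2 (adjusted p 0.000106) and Mki67 fell by 0.93 (adjusted p 0.000636), whereas Cdk1 was at -0.13 and did not pass. Whether the difference of these markers departs from that of the ribosomal protein genes was not tested. Across the 66 members the interval reached no lower than -0.76, in Rpl26, and in the bright members no lower than -0.43, in Rps4x.

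**Figure D5:**
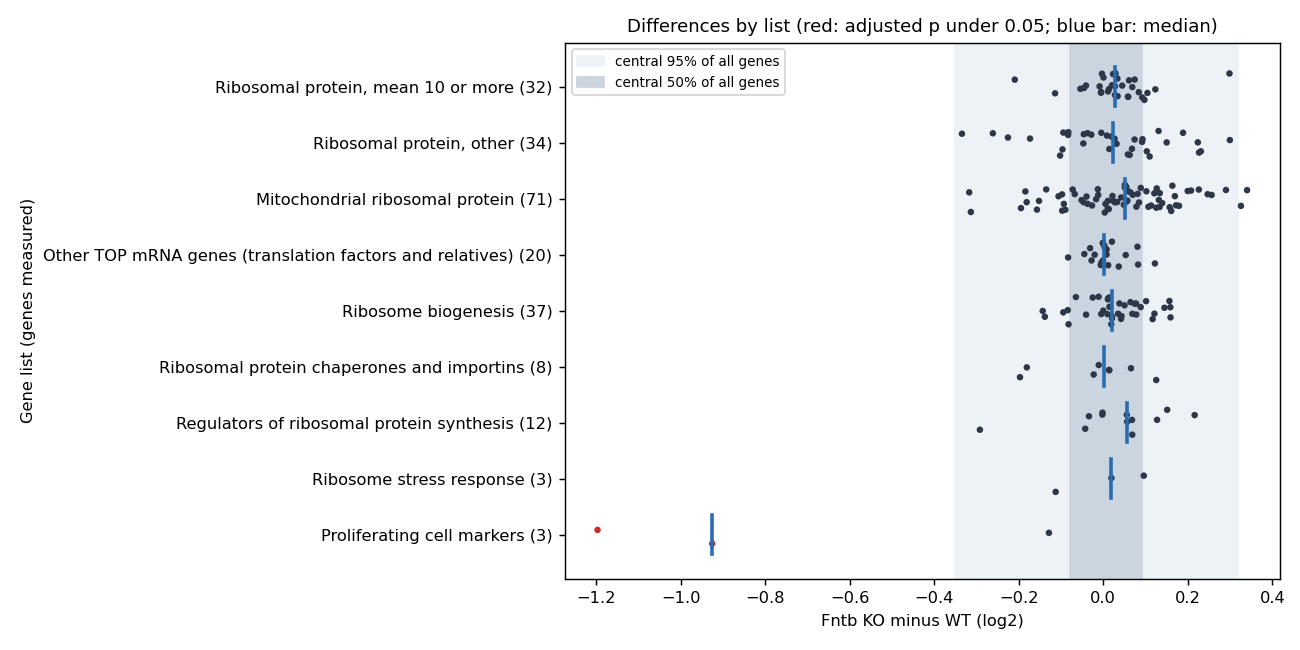
Difference between Fntb KO and WT (log2) of each gene in 9 lists, with the list's median as a blue bar, genes past the threshold in red, and the central 50% and 95% of all genes shaded. No ribosomal gene is red, and the bright ribosomal protein genes lie between -0.21 and 0.30, while Top2a and Mki67 stand at -1.2 and -0.93.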

How the data were processed

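The values deposited by the authors are on the log2 scale and were made with RMA in Affymetrix Expression Console 1.1, per the submitters' processing notes. RMA corrects background, equalises the arrays' distributions and summarises probes, so a difference is relative to other genes. The log2 scale was taken from that note and the range of values. No scanner files or detection calls were used. The array medians were 4.19, 4.10, 4.20, 4.20 and 4.20 in WT 1 to 5 and 4.12, 4.09, 4.21, 4.24 and 4.25 in Fntb KO 1 to 5.

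Of 41345 probe sets, 23521 name a single gene in GEO's platform annotation. The 1820 with several symbols and the 16004 unnamed here were left out. Entrez identifiers of 23328 matched RefSeq genes of GRCm38.p6, and 0 symbols changed. The brightest probe set of each gene was kept. Genotypes were compared in limma 3.58.1 (R 4.3.3, statmod 1.5.0; no covariate, no filter on dim genes) and adjusted over 22180 genes. The fit was tested on simulated data. Errors are SD, or SE of the difference, and the number of arrays limits precision.

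Members, lists and tests were chosen with earlier results of these data known. Named in detail were the 10 highest and 10 lowest differences among large subunit, small subunit and stalk genes, every paralog and stalk gene, and members with the highest or lowest signal or largest spread. From each related list the members with the largest change were named, with others by role. Those others, and the members Rps6, Rpl38, Rpl11, Rpl22 and Rpl39, were chosen with values in view. Nothing in the labels ties each array to its own animal, and p-values here cover only array-to-array spread, which may be technical. Replicate numbers follow accession order and pair nothing.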

Additional observations from a re-analysis of the deposited data

Results flagged for a closer look

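Within-group outliers were looked for in each genotype's 5 arrays for the 66 members and for their median, 134 groups in all. A sample was listed when its gap to the nearest other array exceeded 0.71 of the group's range (Dixon's criterion). It was met in 7 groups, and chance alone gives about 1 in 20. Fntb KO 5 was high in Rpl11 at 6.47, where the other Fntb KO arrays ran from 5.67 to 5.89, and low in Rpl6l at 8.96, where they ran from 9.50 to 9.67. Fntb KO 2 was high in Rpl37 at 5.52, with the others at 5.20 to 5.24. Fntb KO 4 was high in Rpl3l at 3.55, with the others at 3.24 to 3.29. WT 2, a low-median array, was high in Rpl7 at 10.19 (others 9.98 to 9.98) and in Rps3 at 11.25 (others 11.04 to 11.08). WT 1 was low in Rps18 at 12.34, with the others at 12.43 to 12.46.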

How the results depend on the processing

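In 19 alternative fits (scaling, filter, variance model, weights, probe sets of a gene, the authors' own table, each array left out, and the low-median arrays blocked or left out), 0 members were called, nor were any with every probe set tested or with a minimum change of 0.5. The median difference of the members stayed between 0.02 and 0.04. An unadjusted p under 0.05 was found for 2 to 6 members, against 7.64% to 12.7% of all genes in the same fits. The 6 came with trend and robust, which gave smaller SEs to bright genes and added Rps4x, Rps3a1 and Rps19 at adjusted p of 0.405 to 0.467. Of the 66 members, 40 kept 1 sign throughout. Over all genes, the main counts of 67 raised and 179 lowered became 41 and 109 without the 3 low-median arrays, and 93 and 275 with them as a block. Without each array in turn, 32 to 61 were raised and 95 to 192 lowered. The cause was not tested.

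Over the fits, 26 members changed sign without being called. The details below cover only paralogs, stalk genes and the 10 highest and 10 lowest differences outside the paralogs. Among the rest, Rps18 ran from -0.030 to 0.057, Rps6 from -0.009 to 0.032, Rpl11 from -0.12 to 0.15 and Rpl39 from -0.0775 to 0.025. Without the low-median arrays, Rpl9 was 0.048, Rpl5 0.066, Rpl7l1 0.12, Rpl22l1 0.019 and Rplp0 -0.080. As a block they gave Rpl5 0.0002 and Rplp0 -0.012. Another quantile normalization gave Rpl3l -0.002, and array weights gave Rpl7l1 0.016. Leaving out each array in turn, Rpl26 ran from -0.41 to 0.008, Rpl9 from -0.20 to 0.026, Rpl32 from -0.11 to 0.012, Rpl5 from -0.13 to 0.071, Rpl3l from -0.038 to 0.091, Rpl6l from -0.14 to 0.037, Rpl7l1 from -0.11 to 0.042 and Rplp0 from -0.056 to 0.21. The highest values of Rpl26, Rpl32 and Rpl6l came without Fntb KO 5. Signals at or below 4.19 limit what can be seen for 7 members, and Rps16, Rpl22l1, Rps29 and Rpl39l lay just above it. No paired analysis was possible because the labels give no replicate numbers.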
